A study of Mus musculus with 6 samples.

Results

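Gluconeogenesis is the pathway by which the liver makes glucose from lactate, amino acids and glycerol, and the transcripts of 5 of its proteins and 4 of its regulators were followed here in livers with and without Zpbp2. The genes were chosen by name as members of the pathway, with earlier results of these data known, and all 9 were found among the 37991 gene IDs of the deposited table. RNA was sequenced from livers of 12-week-old male mice, 3 of them Zpbp2 KO (B6.Zpbp2-/-, which lack zona pellucida binding protein 2 and carry the strain label C57BL/6J) and 3 of them wild-type C57BL/6J (WT). The comparison asks how loss of Zpbp2 goes with transcript levels in liver. Each library came from 1 liver. The labels give no treatment. The sources used here state neither feeding nor time of day at collection, to which these genes are sensitive, nor which part of Zpbp2 the allele removes.

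Glucose production starts in mitochondria, where pyruvate carboxylase makes oxaloacetate, and runs through the cytosolic enzymes PEPCK and fructose-1,6-bisphosphatase to glucose 6-phosphate, which a transporter carries into the endoplasmic reticulum for glucose-6-phosphatase to cleave. Fasting switches the pathway on through glucagon, cAMP and CREB and through glucocorticoids, while insulin switches it off by keeping FOXO1 out of the nucleus. The promoters of Pck1 and G6pc are textbook cases of this control, with the nuclear receptor HNF4A and the coactivator PGC-1alpha acting on both.

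Zpbp2 itself had 0 reads in each of the 3 Zpbp2 KO libraries, against 4, 13 and 7 in WT replicates 1, 2 and 3. Total counts ran from 47821653 to 51328826 in Zpbp2 KO and from 37904891 to 52955687 in WT libraries, so each of the 9 genes was read at least 237 times in every liver. Levels are CPM, counts scaled to a common library size by edgeR's TMM method, and means are given ± SD over 3 livers. Fold changes on the log2 scale (Zpbp2 KO over WT) come with the SE of edgeR's quasi-likelihood fit to 14686 genes. A gene was called when its Benjamini-Hochberg adjusted p over all of them was below 0.05. Summed markers of hepatocytes took 98460 to 103200 CPM in Zpbp2 KO livers and 87470 to 97600 CPM in WT livers. Periportal hepatocyte markers, Pck1 among them, summed to 9585 to 12820 CPM in Zpbp2 KO and 10980 to 11820 CPM in WT livers. Pericentral ones summed to 7382 to 8295 CPM in Zpbp2 KO and 6258 to 7180 CPM in WT livers. The hepatocyte and pericentral sums did not overlap between genotypes, as held for 11.6% of single tested genes, and the sums were not tested. Of 5 listed kidney and intestine genes, Kap had no read in any library. Umod and Slc34a1 had at most 3 reads a library, Vil1 had 7 to 21, and Fabp2 had 47.9 to 86.3 CPM. Summed Kupffer cell markers ran from 122.9 to 409 CPM in Zpbp2 KO livers and from 222 to 318 CPM in WT livers. Their lowest value was in Zpbp2 KO replicate 2, which was also lowest for summed endothelial markers, at 92.9 CPM, against 138 to 204 CPM in WT livers. In whole liver, fewer cells of a type and less RNA per cell cannot be told apart.

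The promoter windows of 4 of the genes are shown because hormonal control acts in part through promoter sequence. G6pc and Pck1 are the classical hormone-controlled enzymes, Ppargc1a encodes their coactivator, and Fbp1 is an enzyme of the same path for comparison. Each runs from 250 bases before to 50 after the transcription start, 5′ to 3′ on the strand of the gene, from RefSeq on GRCm38.p6. Capitals mark matches on either strand. For cAMP signalling, the core TGACG of the CREB-binding element was searched. The forkhead core used for FOXO1 and its relatives was TGTTTAC. For insulin, the response sequence known from several liver genes, TGTTTTG, was included. The half-site of the glucocorticoid receptor was taken as AGAACA. For HNF4A, part of its known binding sequence, CAAAGTC, was used. The last string was the TATA box, TATAAA.
G6pc, chr11:101367466-101367765, plus strand: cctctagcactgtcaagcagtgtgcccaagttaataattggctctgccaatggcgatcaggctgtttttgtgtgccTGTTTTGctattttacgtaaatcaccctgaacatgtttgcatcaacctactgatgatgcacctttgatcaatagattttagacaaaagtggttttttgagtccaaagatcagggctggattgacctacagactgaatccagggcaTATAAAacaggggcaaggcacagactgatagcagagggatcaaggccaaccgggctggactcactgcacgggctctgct
Pck1, chr2:173152823-173153122, plus strand: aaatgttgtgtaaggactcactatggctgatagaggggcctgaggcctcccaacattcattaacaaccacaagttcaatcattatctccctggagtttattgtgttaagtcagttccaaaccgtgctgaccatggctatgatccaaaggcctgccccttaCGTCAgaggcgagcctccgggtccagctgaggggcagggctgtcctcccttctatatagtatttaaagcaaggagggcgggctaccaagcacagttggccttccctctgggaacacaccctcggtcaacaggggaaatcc
Ppargc1a, chr5:51567676-51567975, minus strand: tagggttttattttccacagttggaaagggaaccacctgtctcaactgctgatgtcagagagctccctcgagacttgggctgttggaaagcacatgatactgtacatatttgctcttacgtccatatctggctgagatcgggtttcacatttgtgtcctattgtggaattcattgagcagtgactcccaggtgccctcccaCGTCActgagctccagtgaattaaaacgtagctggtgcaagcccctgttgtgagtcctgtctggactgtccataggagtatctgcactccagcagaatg
Fbp1, chr13:62888233-62888532, minus strand: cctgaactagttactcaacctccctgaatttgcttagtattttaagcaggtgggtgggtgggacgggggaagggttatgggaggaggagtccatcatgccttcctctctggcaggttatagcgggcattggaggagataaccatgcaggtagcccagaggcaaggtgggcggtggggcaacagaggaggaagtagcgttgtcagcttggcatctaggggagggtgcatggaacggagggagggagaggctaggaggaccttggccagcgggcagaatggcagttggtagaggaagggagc

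The G6pc window held TGTTTTG, whose first base lies 174 bases before the start, and TATAAA, which begins 29 bases before it. The Pck1 and Ppargc1a windows each held CGTCA, the reverse complement of TGACG, beginning 90 bases before the start in Pck1 and 49 bases before it in Ppargc1a. No marked matches overlapped, and the Fbp1 window held none of the 6 letter strings. Of 32851 mouse promoter windows of the same length, 20.8% held TGACG, 6.28% TGTTTTG and 13.6% TATAAA, with 3.65% for TGTTTAC, 19.0% for AGAACA and 4.44% for CAAAGTC. A match is a description of letters and not of a site in use. A missing match does not show that a site is absent, as sites may lie outside the window or differ from the searched string. Of the 9 genes, 8 had an entry in the promoter table, Nr3c1 being the other one.

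None of the 9 genes was called between genotypes. edgeR called 0 of 9, against 0.0136% of all tested genes, and DESeq2 called 0 of 9, against 0.184% of its tested genes higher and 0.334% lower (0.518% in all). At an unadjusted p below 0.05, edgeR had 1 of the 9 lower in Zpbp2 KO livers, G6pc, against 2.93% of all tested genes, and 0 higher, against 2.86%. Groups overlapped for each of the 9, while 11.6% of all tested genes showed no overlap. The median log2 fold change of the 9 was -0.03, and that of all tested genes was 0.01. The genes differed in how much they varied: the highest liver exceeded the lowest 5.15-fold for G6pc, 3.15-fold for Ppargc1a and 2.36-fold for Pck1, and 1.13- to 1.57-fold for the other 6.

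**Figure D1:**
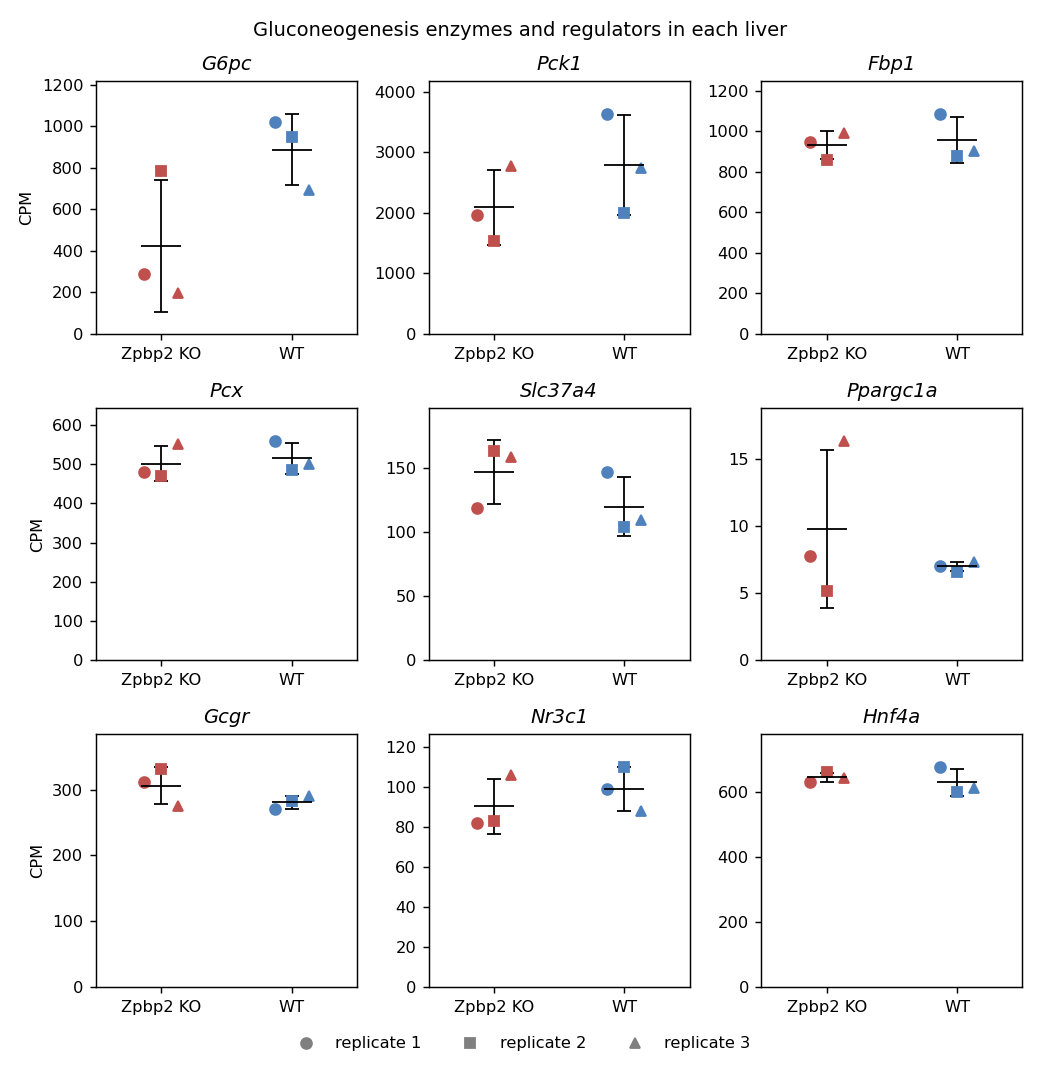
TMM-scaled CPM (y axis, linear, from 0) of the 9 genes in each liver, Zpbp2 KO on the left of each panel and WT on the right. Symbols are livers, and the line and bars are the mean ± SD of 3. G6pc is low in Zpbp2 KO replicates 1 and 3 but not in replicate 2, Ppargc1a is high in Zpbp2 KO replicate 3, and Hnf4a, Pcx and Fbp1 stay close to one level.

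Pcx (ENSMUSG00000024892, chromosome 19) encodes pyruvate carboxylase, the entry step. It had 481, 471 and 552 CPM in Zpbp2 KO replicates 1 to 3, against 560, 485 and 501 CPM in WT replicates 1 to 3. The groups covered nearly the same range. Its log2 fold change was -0.04 ± 0.106, with a 95% interval from -0.28 to 0.20, and its sign turned when Zpbp2 KO replicate 2 or WT replicate 1 was left out.

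Pck1 (ENSMUSG00000027513, chromosome 2), the cytosolic PEPCK that commits oxaloacetate to the pathway, was the most abundant of the 9. Its level was 1967, 1540 and 2766 CPM in Zpbp2 KO replicates 1, 2 and 3, against 3630, 1989 and 2744 CPM in WT replicates 1, 2 and 3. Zpbp2 KO replicates 1 and 2 were below all WT livers, though replicate 1 only just, and replicate 3 lay inside the WT range. Means were 2091 ± 622 CPM in Zpbp2 KO and 2787 ± 821 CPM in WT livers, a log2 fold change of -0.41 ± 0.259. The edgeR adjusted p was 0.798, and the 95% interval ran from -1.01 to 0.18. The estimate leaned on single livers, at -0.18 without WT replicate 1 and -0.67 without Zpbp2 KO replicate 3.

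Fbp1 (ENSMUSG00000069805, chromosome 13) encodes fructose-1,6-bisphosphatase of the liver. It stood at 946, 860 and 993 CPM in Zpbp2 KO replicates 1 to 3, against 1086, 879 and 903 CPM in WT replicates 1 to 3. The livers of both genotypes were interleaved. For Fbp1 the log2 fold change was -0.03 ± 0.116, with a 95% interval from -0.30 to 0.23, and its sign turned when Zpbp2 KO replicate 2 or WT replicate 1 was left out.

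G6pc (ENSMUSG00000078650, chromosome 11), the catalytic subunit of glucose-6-phosphatase that releases free glucose, had the lowest p of the set. Zpbp2 KO replicates 1, 2 and 3 had 288, 786 and 198 CPM, against 1019, 950 and 693 CPM in WT replicates 1, 2 and 3. Zpbp2 KO replicates 1 and 3 were far below every WT liver, and replicate 2 lay within the WT range. Means were 424 ± 316 CPM in Zpbp2 KO and 887 ± 172 CPM in WT livers, and the coefficient of variation was 74.6% in Zpbp2 KO and 19.3% in WT livers. The log2 fold change was -1.07 ± 0.450, which is 0.478 of the WT level, with a 95% interval from -2.10 to -0.03. Its edgeR p was 0.0442 before and 0.798 after adjustment, rank 761 among the 14686 genes. Every alternative run gave a value below 0, from -1.87 without Zpbp2 KO replicate 2 (edgeR adjusted p = 0.104) to -0.73 without Zpbp2 KO replicate 3 (edgeR adjusted p = 0.473). The unadjusted p was below 0.05 in only 8 of the 14 alternatives. It was 0.0789 by DESeq2, 0.0874 by edgeR with a robust fit and 0.135 by edgeR without Zpbp2 KO replicate 1.

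Slc37a4 (ENSMUSG00000032114, chromosome 9) encodes the transporter that brings glucose 6-phosphate to the G6pc enzyme. It had 118.5, 164 and 158 CPM in Zpbp2 KO replicates 1 to 3, against 146.5, 104 and 109 CPM in WT replicates 1 to 3. Zpbp2 KO replicates 2 and 3 exceeded all WT livers and replicate 1 did not. On the log2 scale the difference was 0.29 ± 0.169, with a 95% interval from -0.10 to 0.68 and an edgeR adjusted p of 0.798. Catalytic subunit and transporter thus had estimates of opposite sign. The ratio of G6pc to Slc37a4 CPM within a liver was 2.43, 4.81 and 1.25 in Zpbp2 KO replicates 1 to 3, against 6.95, 9.13 and 6.35 in WT replicates 1 to 3. This ratio did not overlap between genotypes, but it was formed with the levels of both genes known and was not tested. Of single tested genes, 11.6% showed no overlap, and no such share was worked out for ratios.

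Among the regulators, Gcgr (ENSMUSG00000025127, chromosome 11), the glucagon receptor, had 312, 331 and 276 CPM in Zpbp2 KO replicates 1 to 3, against 270, 283 and 289.7 CPM in WT replicates 1 to 3. Only Zpbp2 KO replicate 3 lay within the WT range, and the other Zpbp2 KO livers were above it. Zpbp2 KO over WT came to 0.12 ± 0.100 on the log2 scale, with a 95% interval from -0.10 to 0.35. Nr3c1 (ENSMUSG00000024431, chromosome 18), the glucocorticoid receptor, had 82.0, 82.9 and 106 CPM in Zpbp2 KO replicates 1 to 3, against 99.2, 110.0 and 88.1 CPM in WT replicates 1 to 3. Zpbp2 KO replicates 1 and 2 lay below the WT livers and replicate 3 among them. Its log2 fold change was -0.13 ± 0.134, with a 95% interval from -0.44 to 0.17.

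Hnf4a (ENSMUSG00000017950, chromosome 2), the nuclear receptor that maintains hepatocyte transcription, was the steadiest of the set. It had 630.5, 660.1 and 642 CPM in Zpbp2 KO replicates 1 to 3, against 677, 599.8 and 612 CPM in WT replicates 1 to 3. The highest liver was 1.13 times the lowest, and the Zpbp2 KO livers all lay inside the WT range. The log2 fold change was 0.03 ± 0.0925, with a 95% interval from -0.18 to 0.25, and it turned to just below 0 with library totals in place of TMM, without WT replicate 2 and without WT replicate 3.

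Ppargc1a (ENSMUSG00000029167, chromosome 5), the fasting-induced coactivator PGC-1alpha, had 7.74, 5.20 and 16.3 CPM in Zpbp2 KO replicates 1, 2 and 3, against 7.04, 6.59 and 7.31 CPM in WT replicates 1, 2 and 3. The WT livers were nearly equal, while Zpbp2 KO livers held both the lowest and the highest value. The coefficient of variation was 59.9% in Zpbp2 KO and 5.19% in WT livers. The log2 fold change of 0.49 ± 0.364 (95% interval from -0.35 to 1.32) had an edgeR adjusted p of 0.814 and rested on replicate 3, since it was -0.11 without that liver. Zpbp2 KO replicate 3 thus combined the highest Ppargc1a with the lowest G6pc of all livers. It also had the highest sum of Kupffer cell markers, at 409 CPM. In Zpbp2 KO replicate 1 that sum, at 375 CPM, was above all WT livers too, and its Ppargc1a was 7.74 CPM. The part of cell makeup in these values was not tested.

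**Figure D2:**
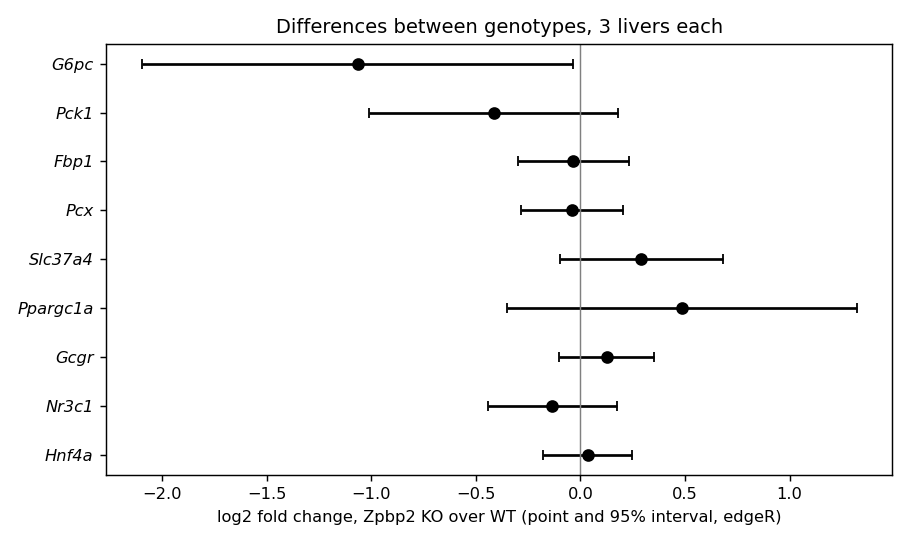
Log2 fold change of each gene, Zpbp2 KO over WT (x axis), with its 95% interval from edgeR's quasi-likelihood test on 3 livers of each genotype. G6pc and Ppargc1a have the widest intervals. The interval of G6pc, from -2.10 to -0.03, is the one that leaves out 0, before adjustment for 14686 genes.

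No single liver was low for the whole set. Zpbp2 KO replicate 2 was the lowest liver for 4 genes (Pck1, Fbp1, Pcx and Ppargc1a) and the highest for 2 (Slc37a4 and Gcgr). WT replicate 1 was the highest for 5 genes (G6pc, Pck1, Fbp1, Pcx and Hnf4a) and the lowest for 1, Gcgr. G6pc and Pck1, often described as a coregulated pair, ordered the livers differently, as the ratio of G6pc to Pck1 CPM was 0.147, 0.510 and 0.0716 in Zpbp2 KO replicates 1 to 3, against 0.281, 0.478 and 0.253 in WT replicates 1 to 3. The ratio in Zpbp2 KO replicate 2 was above all others, and those in replicates 1 and 3 were below all WT livers.

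Levels of different genes can be compared per length, here as mean CPM per kilobase of merged exons in GENCODE M21, which underrates genes with many annotated exons. In Zpbp2 KO livers the order was Pck1 (609.8 ± 181.5 CPM per kb), Fbp1 (548 ± 39.7), G6pc (176 ± 131), Hnf4a (133.5 ± 3.08), Gcgr (117 ± 10.8), Pcx (105.5 ± 9.25), Slc37a4 (51.4 ± 8.62), Nr3c1 (11.8 ± 1.77) and Ppargc1a (1.48 ± 0.886). In WT livers it was Pck1 (813 ± 240 CPM per kb), Fbp1 (562 ± 66.4), G6pc (368 ± 71.1), Hnf4a (130.4 ± 8.55), Pcx (108.5 ± 8.29), Gcgr (107 ± 3.74), Slc37a4 (42.0 ± 8.13), Nr3c1 (12.9 ± 1.43) and Ppargc1a (1.06 ± 0.0550). Pck1 and Fbp1 overlapped over livers in both genotypes, as did Gcgr and Pcx. G6pc overlapped Hnf4a in Zpbp2 KO livers, where it ran from 82.0 to 325 CPM per kb, and stood clear of it in WT livers, where it ran from 287 to 422 CPM per kb. All other neighbours in the order were separate.

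Genes whose pattern over the 6 livers was most like each variable gene were ranked by the root mean square difference of log2 CPM, centred on the mean of each gene, among 12041 genes. Nearest to G6pc were G0s2, an inhibitor of lipolysis (difference 0.36), Epha2, an ephrin receptor (0.39), and Stac3 (0.39). G0s2 had 27.6, 53.5 and 21.4 CPM in Zpbp2 KO replicates 1 to 3, against 106.5, 56.8 and 81.9 CPM in WT replicates 1 to 3. Its Zpbp2 KO replicate 2 was the highest of its genotype, which choosing genes by likeness to G6pc over these livers favours. Nearest to Pck1 were Sertad1 (0.07), Jade1 (0.08) and Gpr65 (0.10), and nearest to Ppargc1a were Tbc1d30 (0.12), Tifa (0.13) and the hexokinase gene Hk3 (0.13). With 6 livers and so many genes, close matches exist for many patterns. None of the other 8 genes was near G6pc by this measure. The smallest difference, 0.90 for Hnf4a, is one that a gene with little variation gets, and does not mean a like pattern. Pck1 stood at 0.98.

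G6pc shares chromosome 11 with Zpbp2, with 179 genes of the table between them in GENCODE order, 64 of which were tested. Of these 64, edgeR called 0, and at an unadjusted p below 0.05 it had 2 higher (Rapgefl1 and Gm10039) and 2 lower (Gm12359 and Klhl11), which is 6.25%, against 5.79% of all tested genes. Their median log2 fold change was 0.02, and the lowest, that of Klhl11, was -0.93, so the G6pc estimate lay below all of them. Of the tested genes next to G6pc, Aarsd1 stood at 0.11 ± 0.137, and Gm11619, with 4 to 15 reads a liver, at 0.09 ± 0.611, with a 95% interval from -1.31 to 1.49 that takes in the G6pc estimate. DNA that flanks the allele and the loss of Zpbp2 go with the same livers and cannot be told apart here.

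**Figure D3:**
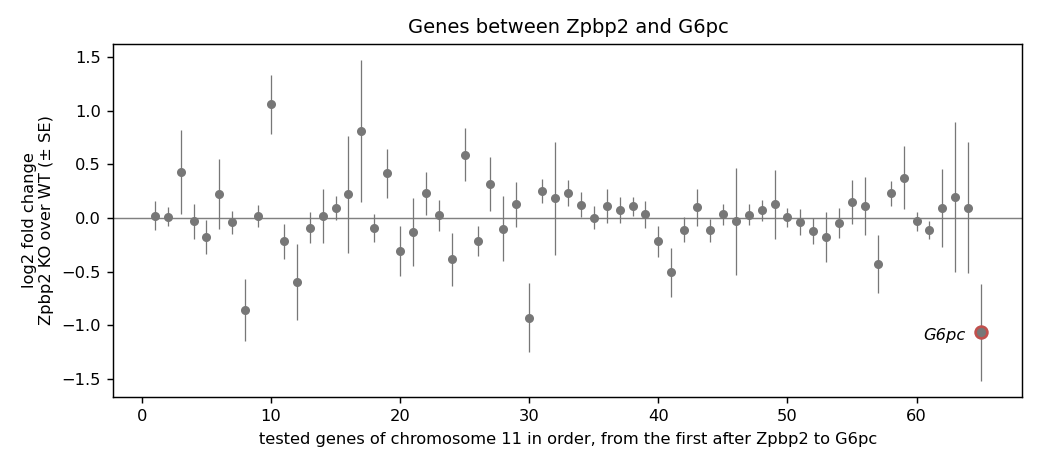
Log2 fold change ± SE, Zpbp2 KO over WT (y axis), of the 64 tested genes between Zpbp2 and G6pc and of G6pc itself (red), in their order along chromosome 11 (x axis, not to scale). Values scatter about 0, and G6pc at -1.07 is the lowest point.

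The remaining enzymes of the pathway showed small differences. Of 19 listed enzymes and shuttle proteins that gluconeogenesis shares with other pathways, 17 were tested, 0 were called by edgeR and 0 by DESeq2, and 0 reached an unadjusted p below 0.05. The median was 0.05, with 12 above 0. The lowest p-values were those of G6pc3, the widely expressed glucose-6-phosphatase (6.86 ± 0.479 CPM in Zpbp2 KO and 5.74 ± 0.518 CPM in WT livers, log2 fold change 0.26 ± 0.149), and Mpc1, a subunit of the mitochondrial pyruvate carrier (93.4 ± 9.22 CPM in Zpbp2 KO and 82.2 ± 4.99 CPM in WT livers, 0.18 ± 0.107). Fbp2 and the islet gene G6pc2 were too low to test. Mitochondrial PEPCK, Pck2, was low in these livers, at 4.89 ± 0.459 CPM in Zpbp2 KO and 5.93 ± 0.943 CPM in WT, with a log2 fold change of -0.28 ± 0.176; it is named after its values were seen.

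Genes that supply substrate or carry glucose out had 9 of 13 tested members below 0, against 6922 of all 14686 tested genes, and a median of -0.13. edgeR called 0 and DESeq2 1, lower, against 0.334% of all its tested genes, and 3 were lower at an unadjusted p below 0.05, against 2.93% of all tested genes. Pdk4, the kinase that keeps pyruvate away from the citric acid cycle and so available to carboxylation, had 6.36, 6.25 and 4.02 CPM in Zpbp2 KO replicates 1 to 3, against 12.9, 13.5 and 21.5 CPM in WT replicates 1 to 3. The groups did not overlap, as held for 6.01% of all tested genes in the lower direction. The log2 fold change was -1.53 ± 0.253 (edgeR adjusted p = 0.287), and DESeq2 called the gene (adjusted p = 2.53e-06). Tat, the first enzyme of tyrosine breakdown and a classical glucocorticoid target, had 1135 ± 151 CPM in Zpbp2 KO and 1533 ± 238 CPM in WT livers, a log2 fold change of -0.43 ± 0.148 with overlap between the groups. The glucose exporter gene Slc2a2, named after its values were seen, had a log2 fold change of 0.07 ± 0.245.

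Of 8 listed enzymes of the glycolytic direction and their regulators, 7 had estimates above 0 and 1 below, with a median of 0.30. Of all 14686 tested genes, 7764 were above 0, and the median was 0.01. Gckr, named after its values were seen, encodes an inhibitory regulator and is among the 7 (0.19 ± 0.126). Also among the 7, and named after their values were seen, are the hexokinase genes Hk1, Hk2 and Hk3. Hk1 (0.03 ± 0.222) and Hk2 (0.01 ± 0.396) lay close to 0. Hk3 (0.525 ± 0.333) had 6.15, 3.82 and 10.6 CPM in Zpbp2 KO replicates 1 to 3, against 5.40, 4.45 and 4.48 CPM in WT replicates 1 to 3. edgeR and DESeq2 called 0 of the 8. By edgeR, 1 reached an unadjusted p below 0.05, in the higher direction, against 2.86% of all tested genes. Pfkfb1, the bifunctional enzyme that sets fructose 2,6-bisphosphate in liver, had 30.3, 36.2 and 27.4 CPM in Zpbp2 KO replicates 1 to 3, against 17.2, 20.8 and 26.7 CPM in WT replicates 1 to 3. Its groups did not overlap, as held for 5.56% of all tested genes in the higher direction, although Zpbp2 KO replicate 3 lay just above WT replicate 3. Its log2 fold change was 0.54 ± 0.177 (edgeR adjusted p = 0.798). Pklr, the liver pyruvate kinase, had 298, 493 and 434 CPM in Zpbp2 KO replicates 1 to 3, against 393, 264 and 262 CPM in WT replicates 1 to 3. Zpbp2 KO replicates 2 and 3 exceeded all WT livers and replicate 1 did not, and the log2 fold change was 0.41 ± 0.219 (edgeR adjusted p = 0.798).

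**Figure D4:**
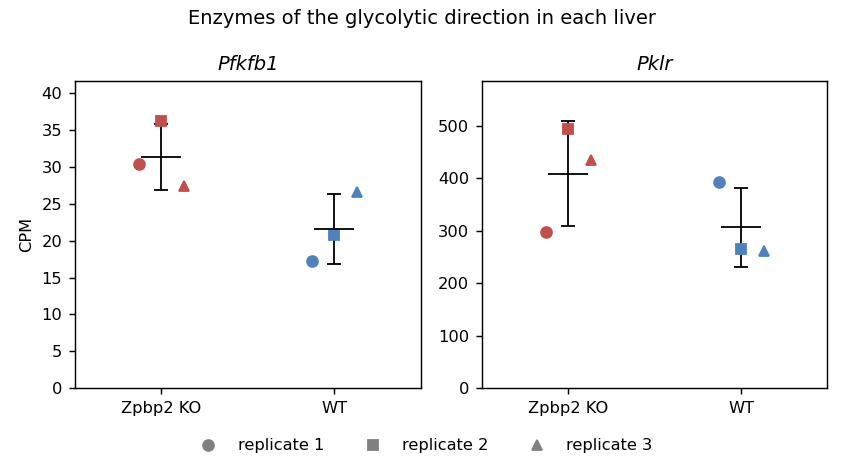
TMM-scaled CPM (y axis, linear, from 0) of Pfkfb1 and Pklr in each liver, Zpbp2 KO left and WT right, with mean ± SD of 3. Pfkfb1 does not overlap between genotypes, and Pklr overlaps through WT replicate 1, at 393 CPM.

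The 2 genes that edgeR called were Sik1, listed under hormone signalling, and Nr4a1, listed among transcription factors; both lists were chosen with earlier results of these data known. Of 25 listed genes of glucagon, insulin and cAMP signalling, 22 were below 0 with a median of -0.12, against 6922 of all 14686 tested genes below 0. edgeR called 1, against 0.0136% of all tested genes, DESeq2 called 2, against 0.334% in the lower direction, and 3 reached an unadjusted p below 0.05 by edgeR, against 2.93%; all were lower. The gene called by edgeR was Sik1, the cAMP-induced kinase that restrains CREB coactivators at the Pck1 and G6pc promoters in mouse liver, with 11.2, 11.5 and 13.5 CPM in Zpbp2 KO replicates 1 to 3, against 55.8, 49.6 and 49.0 CPM in WT replicates 1 to 3 (log2 fold change -2.10 ± 0.118, edgeR adjusted p = 0.000993). Irs2, the insulin receptor substrate induced in fasting, is named after its values were seen and had 10.8, 5.70 and 13.8 CPM in Zpbp2 KO replicates 1 to 3, against 29.0, 27.5 and 15.0 CPM in WT replicates 1 to 3, and was called by DESeq2 (adjusted p = 0.0284) and not by edgeR (adjusted p = 0.677). Creb1 (-0.04 ± 0.116) and its coactivator Crtc2 (-0.12 ± 0.111), named after their values were seen, overlapped between groups. For Crtc2, Zpbp2 KO replicates 1 and 2, at 33.5 and 31.8 CPM, were below the WT livers, which had 37.2 to 38.7 CPM. Its Zpbp2 KO replicate 3, at 40.0 CPM, was above them.

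Of 26 listed transcription factors and coregulators that act on Pck1 or G6pc, 25 were tested, 15 were below 0 and the median was -0.07. edgeR called 1, against 0.0136% of all tested genes, DESeq2 called 1, against 0.334% in the lower direction, and 3 reached an unadjusted p below 0.05 by edgeR, against 2.93%; all were lower. The gene called by both was Nr4a1, a cAMP-induced nuclear receptor that raises G6pc in mouse liver. It had 1.69, 1.23 and 1.61 CPM in Zpbp2 KO replicates 1 to 3, against 31.6, 15.1 and 27.9 CPM in WT replicates 1 to 3 (log2 fold change -4.04 ± 0.302, edgeR adjusted p = 0.00499). That call was lost without Zpbp2 KO replicate 3 (edgeR adjusted p = 0.0923) and with limma-voom (adjusted p = 0.0523). Unlike G6pc, Nr4a1 and Sik1 were low in Zpbp2 KO replicate 2 as in the other Zpbp2 KO livers. Nr4a2 and the deacetylase gene Sirt1, also named after their values were seen, did not overlap between groups. That held for 6.01% of all tested genes in the lower direction. Nr4a2 had 0.501 ± 0.136 CPM in Zpbp2 KO and 1.16 ± 0.408 CPM in WT livers (-1.22 ± 0.346). Sirt1 had 11.7 ± 1.37 CPM in Zpbp2 KO and 15.4 ± 0.719 CPM in WT livers (-0.40 ± 0.128). Foxo1, the factor through which insulin acts on G6pc and named after its values were seen, had a log2 fold change of 0.07 ± 0.0859. Its groups did not overlap either, as held for 5.56% of all tested genes in the higher direction.

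Partners and targets of the glucocorticoid receptor and targets of HNF4A had estimates on both sides of 0. Of 14 listed partners and targets of the glucocorticoid receptor, 7 were below 0 and 7 above, with a median of 0.00; 0 were called by edgeR or DESeq2, and 2 reached an unadjusted p below 0.05 by edgeR, both lower, against 2.93% of all tested genes. These were Tat and Dusp1, a MAP kinase phosphatase gene (23.3 ± 11.5 CPM in Zpbp2 KO and 50.9 ± 15.5 CPM in WT livers, log2 fold change -1.13 ± 0.348). Fkbp5, a sensitive glucocorticoid target named after its values were seen, had a log2 fold change of 0.09 ± 0.261. Of 15 liver genes driven by Hnf4a, 7 were below 0 and 8 above, with a median of 0.00, and edgeR and DESeq2 called 0. At an unadjusted p below 0.05 they held 1 higher, the bile acid synthesis enzyme gene Cyp7a1 (0.97 ± 0.359), against 2.86% of all tested genes, and 1 lower, Mttp, which loads lipid onto apolipoprotein B (-0.23 ± 0.0981), against 2.93%. Cyp7a1 had 91.7, 176 and 62.9 CPM in Zpbp2 KO replicates 1 to 3, against 73.6, 42.1 and 53.1 CPM in WT replicates 1 to 3, and its log2 fold change was 0.46 without Zpbp2 KO replicate 2, the highest liver.

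**Figure D5:**
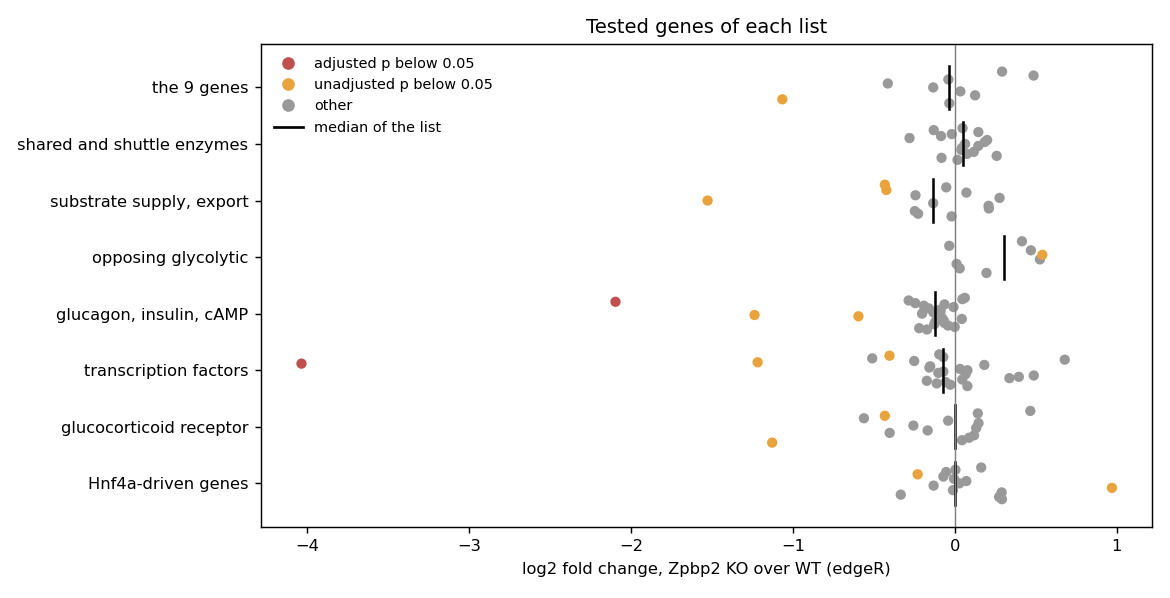
Log2 fold change, Zpbp2 KO over WT (x axis), of each tested gene in the 9-gene set and the 7 other lists; vertical bars are list medians and colours give the edgeR result. Sik1 at -2.10 and Nr4a1 at -4.04 are the called genes, and the glycolytic list has the highest median, 0.30.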

How the data were processed

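The deposited table holds raw counts, as whole numbers per Ensembl gene ID for 6 poly(A)-selected liver libraries made from 250 ng of RNA, per the labels' protocols. STAR, Picard, HTSeq and genome build mm9 are named per the submitters' processing notes; the sources used here state no settings, annotation or strand use for the counting, so reads of overlapping antisense genes may not be separated. Columns were matched to samples by title. Symbols came from GENCODE M21 or RefSeq for 32919 IDs (86.6%).

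The test was edgeR 4.0.16 in R 4.3.3: filterByExpr with a minimum count of 10, TMM, quasi-likelihood F-test, two-sided, no covariate, Benjamini-Hochberg adjustment over 14686 genes. SEs and 95% intervals are those implied by the test. Alternatives were DESeq2 1.42.0, limma-voom (limma 3.58.1), other scalings and filters, a robust fit, the replicate number as a block, and each library left out. Log2 CPM for pattern likeness used a prior count of 2.

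The 9 genes and the other lists were chosen with earlier results of these data known. A listed gene of the glycolytic direction is not reported here and was left out of the counts of its list. Genes named besides the 9 were, per list, those called by edgeR or, with none, the 2 with the smallest p, plus upstream or downstream partners said to be named after their values were seen; for likeness the 3 nearest genes were taken, and between Zpbp2 and G6pc those at an unadjusted p below 0.05. Replicates of a group differed by a chi-square of 18.7 to 94.9 per gene, so none was a copy of another. Library totals ran from 37904891 to 52955687 counts. For genes with few reads, such as Ppargc1a with 279 to 369 in WT livers, counting error is not small beside the spread between WT livers. The coefficient of variation of Ppargc1a was 5.19% in WT livers and far larger, 59.9%, in Zpbp2 KO livers.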

Additional observations from a re-analysis of the deposited data

How the results depend on the processing

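None of the 9 genes was called under any of the 14 alternatives. G6pc, Pck1 and Nr3c1 stayed below 0 and Slc37a4 and Gcgr above 0 in all of them. Their lowest and highest values, each with a library left out, were -1.87 and -0.73 for G6pc, -0.67 and -0.18 for Pck1, -0.27 (without Zpbp2 KO replicate 3) and -0.053 (without WT replicate 2) for Nr3c1, 0.20 (without WT replicate 2) and 0.46 (without WT replicate 1) for Slc37a4, and 0.064 (without Zpbp2 KO replicate 2) and 0.19 (without Zpbp2 KO replicate 3) for Gcgr. With a library left out, log2 fold changes ranged from -0.0922 to 0.0657 for Fbp1, from -0.116 to 0.0223 for Pcx, from -0.11 to 0.79 for Ppargc1a and from -0.0022 to 0.0879 for Hnf4a. The sign turned for Fbp1 without Zpbp2 KO replicate 2 (0.02) and without WT replicate 1 (0.0657), for Pcx in the same settings (0.0019 and 0.0223), for Ppargc1a without Zpbp2 KO replicate 3 (-0.11), and for Hnf4a with library totals (-0.00037), without WT replicate 2 (-0.00068) and without WT replicate 3 (-0.0022); the cause was not tested. Over all genes, edgeR's 0 higher and 2 lower calls became 27 and 49 with DESeq2 and 3 and 9 without a filter on low counts, and ranged from 0 to 1 higher and from 2 to 4 lower with a library left out. The labels do not state that shared replicate numbers pair animals, so they were not taken to do so. Correlations of deviations were 0.142, 0.197 and -0.237 for same-numbered livers, and ran from -0.323 to 0.232 for unlike-numbered ones. Deviations from a group's own mean of 3 constrain one another, so these values cannot decide on pairing. With the replicate block the counts were 0 higher and 2 lower, with 0 of the 9 genes called, and G6pc stood at -1.31 (edgeR adjusted p = 0.589). With 3 livers a group, the 95% intervals of G6pc, Pck1 and Ppargc1a spanned more than 1 log2 unit.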
